A study of Danio rerio with 6 samples.

Results

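The myosin-binding proteins C and H were represented on the Affymetrix Zebrafish Genome Array by 4 of its 15502 non-control probe sets. They were every probe set whose single gene symbol in the platform annotation begins with mybpc or mybph, and each stood for a different gene. The genes, of 8793 named in all, were mybpc2b (Entrez 541384), mybpc3 (Entrez 556489), mybpha (Entrez 393530) and mybphb (Entrez 321053). No probe set with several symbols named a further gene of the family. Zebrafish mybpc1 and mybpc2a were not among the platform's symbols and were not analysed here.

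The samples were 3 pools of trunk and tail muscle from runzel mutants and 3 from their wildtype siblings, taken at the onset of the visible phenotype and labelled 3.5 days post fertilization. Head, heart and gut had been dissected away. Runzel is a zebrafish line with a muscular dystrophy phenotype that the series title attributes to titin. The allele, the number of larvae in a pool and whether the siblings included heterozygous carriers are not given in the sources used here. The series description states that mutants and siblings were matched by clutch, over 3 clutches, but no label says which arrays share one.

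Myosin-binding protein C lies in regular stripes on the thick filament of the sarcomere, where it binds the myosin rod and titin and reaches towards the myosin heads and actin. In mammals it has slow skeletal, fast skeletal and cardiac forms, encoded by MYBPC1, MYBPC2 and MYBPC3, and it tunes how many myosin heads are free to bind actin. Myosin-binding protein H is a shorter relative that shares the domains of the C-terminal end of protein C, by which it too binds the thick filament. In the zebrafish gene names, mybpc2b is a copy of the fast skeletal form, mybpc3 corresponds to the cardiac form, and mybpha and mybphb are a pair of protein H genes.

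Signal is the deposited linear brightness of a probe set, and differences were computed on log2 of signal plus 50. Median signal ranged from 612.6 to 672.3 on runzel arrays and from 602.1 to 630.6 on wildtype sibling arrays. The 10 fast skeletal muscle markers measured all lay at or above percentile 98.4 of mean signal over probe sets, so the labelled tissue showed its defining genes. Their summed signal was 824820 to 910444 on runzel arrays and 872567 to 1027785 on wildtype sibling arrays, and none of the 10 passed. Of these 10, 2 had a log2 difference above 0 and 8 below, with a median of -0.09. Of the 3 slow muscle markers measured 2 were tested, 2 lay above 0 with a median of 0.18, and neither passed. The other, prox1a, was too dim to be tested. Its log2 difference was -0.615, and it was lower in runzel in 3 of 3 pairs. In the paired fit described further on, 6 of 19 tested epidermis markers fell, as did 2 of 13 markers of gut, liver and pancreas, against 0.473% of all tested probe sets. The epidermis markers summed to 376760 to 446631 on runzel arrays and 450109 to 500889 on wildtype sibling arrays. Of the 19 tested, 2 lay above 0 and 17 below. They reached percentile 99.9 of mean signal, for krt4, so such bright markers were not confined to muscle. The gut, liver and pancreas markers summed to 146950 to 161184 on runzel arrays and 185294 to 201045 on wildtype sibling arrays, with 1 of the 13 tested above 0 and 12 below. These markers lay at percentile 7.5 to 99.5 of mean signal, the highest being apoa1a. The list pools genes of several tissues, so its brightest members do not by themselves show that gut remained. Among its genes vil1 lay at percentile 19.4, alpi.1 at 47.6 and fabp2 at 83.1. No marker was listed at 0.

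In the primary comparison, which did not pair arrays, no gene of the family passed. Pairing arrays of the same number was a choice made from the values, since no label states the pairs. With that pairing the gene mybpc2b alone passed, and it was higher in runzel muscle. Its signal was 6545.5, 12500.7 and 12145.0 on runzel arrays 1, 2 and 3, against 2362.7, 3789.9 and 6526.9 on wildtype sibling arrays 1, 2 and 3. The groups did not overlap, but the lowest runzel array and the highest wildtype sibling array lay only 18.6 signal units apart. Array number 1 was the lowest in both groups. Mean signal was 10397 ± 3340.3 in runzel muscle and 4226.5 ± 2116.2 in wildtype muscle (SD, n = 3 each). Non-overlapping groups with runzel higher were found for 5.89% of all 9301 tested probe sets.

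**Figure D1:**
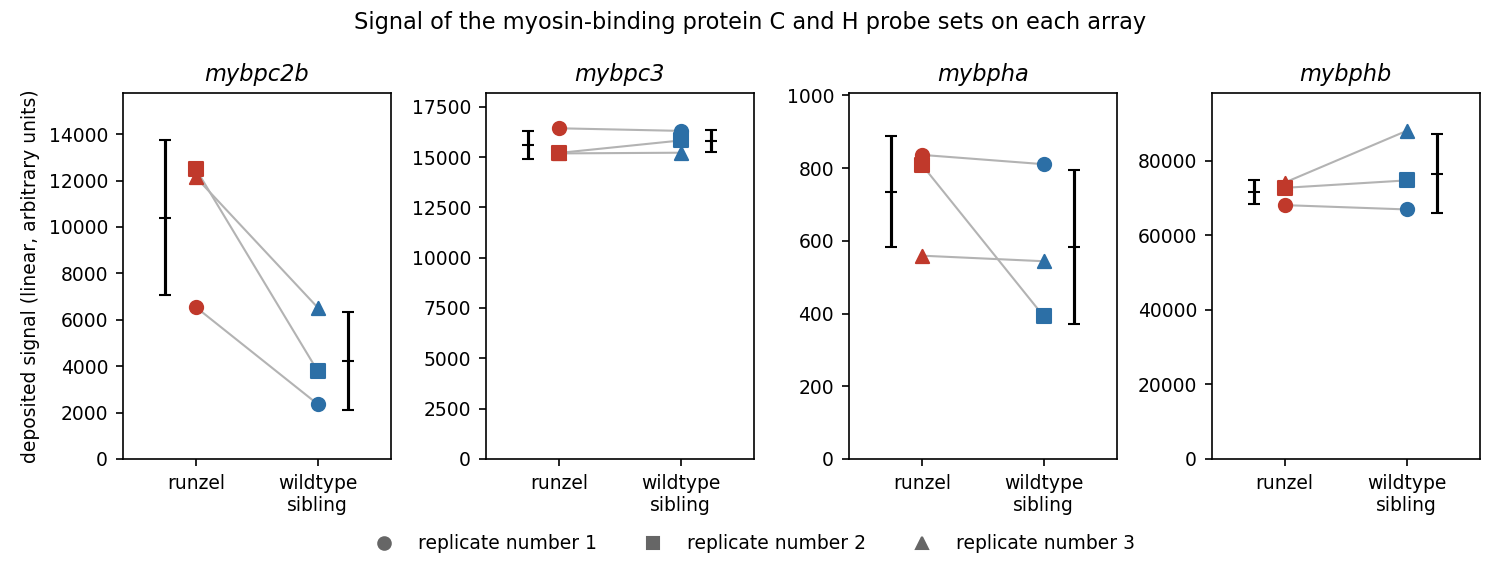
Deposited signal of the 4 probe sets (vertical axes, linear and from 0) on runzel arrays (red, left) and wildtype sibling arrays (blue, right), with grey lines joining arrays of the same replicate number and black bars giving mean ± SD (n = 3). All 3 lines slope down from runzel to wildtype sibling for mybpc2b, whereas mybpc3 is level at 15179 to 16428 on all 6 arrays.

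The groups were compared in limma across all tested probe sets, once without a block and once with the replicate number as a block, here called the paired fit. In the paired fit mybpc2b rose by a log2 difference of 1.35 ± 0.143 (SE), which is 2.55-fold with a 95% interval of 2.05 to 3.17 (limma adjusted p = 0.00161). It ranked number 6 of all probe sets by p. The paired fit called 1.19% of tested probe sets in either direction and 0.72% as higher. Without the block, which was the primary fit, the difference was the same with a wider interval of 1.46-fold to 4.46-fold. It did not pass there (limma adjusted p = 0.814), and that fit called 0 probe sets. Of its 9301 tested probe sets 447 had an unadjusted p under 0.05. That is no more than the share of 0.05 that would fall there without any difference if the arrays were independent. Deviations of same-number arrays from their group means correlated at 0.389 to 0.551, so that share need not hold here. In the paired fit 1181 of the 9301 had an unadjusted p under 0.05, but its pairs were chosen from the values.

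Within pairs of the same number, runzel signal of mybpc2b was 2.77-fold, 3.30-fold and 1.86-fold that of wildtype siblings. The exact permutation test gave p = 0.1 and the exact sign-flip test over pairs p = 0.25, the smallest values that 3 arrays per group allow. The same direction, higher in 3 of 3 pairs, was seen for 18.1% of tested probe sets. The 3 pairs spread by 0.418 on the log2 scale (SD), an SE of 0.241 from this gene's own values alone. The smaller SE of limma draws on the spread of probe sets of like brightness, and was 0.177 without that intensity trend. Without the trend the paired fit did not call mybpc2b (limma adjusted p = 0.119), nor did the fit with the number as a random block (limma adjusted p = 0.0559).

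Spread within groups was large for mybpc2b. Its within-group SD of 0.632 on the log2 scale stood at percentile 97.5 of the tested probe sets, whose median was 0.225. Leaving out wildtype sibling array 1, the lowest of all, gave an unpaired difference of 1.00, and leaving out wildtype sibling array 3 gave 1.72. The ratio of 3′ to 5′ signal on the manufacturer's actin controls, often read as a sign of RNA integrity, stood at 2.64, 2.03 and 2.78 on the runzel arrays and 1.43, 1.37 and 1.74 on the wildtype sibling arrays. This ratio separated the groups as mybpc2b did, and its part in the result was not tested. The controls are named for acta1, and the acta1a probe set itself had a log2 difference of -0.78. Whether that bears on the ratio was not tested. The same ratio for GAPDH ran from 1.461 to 1.535 on runzel arrays and from 1.53 to 1.60 on wildtype sibling arrays. In pooled tissue, a changed number of cells of a type and a changed amount of RNA per cell cannot be told apart.

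**Figure D2:**
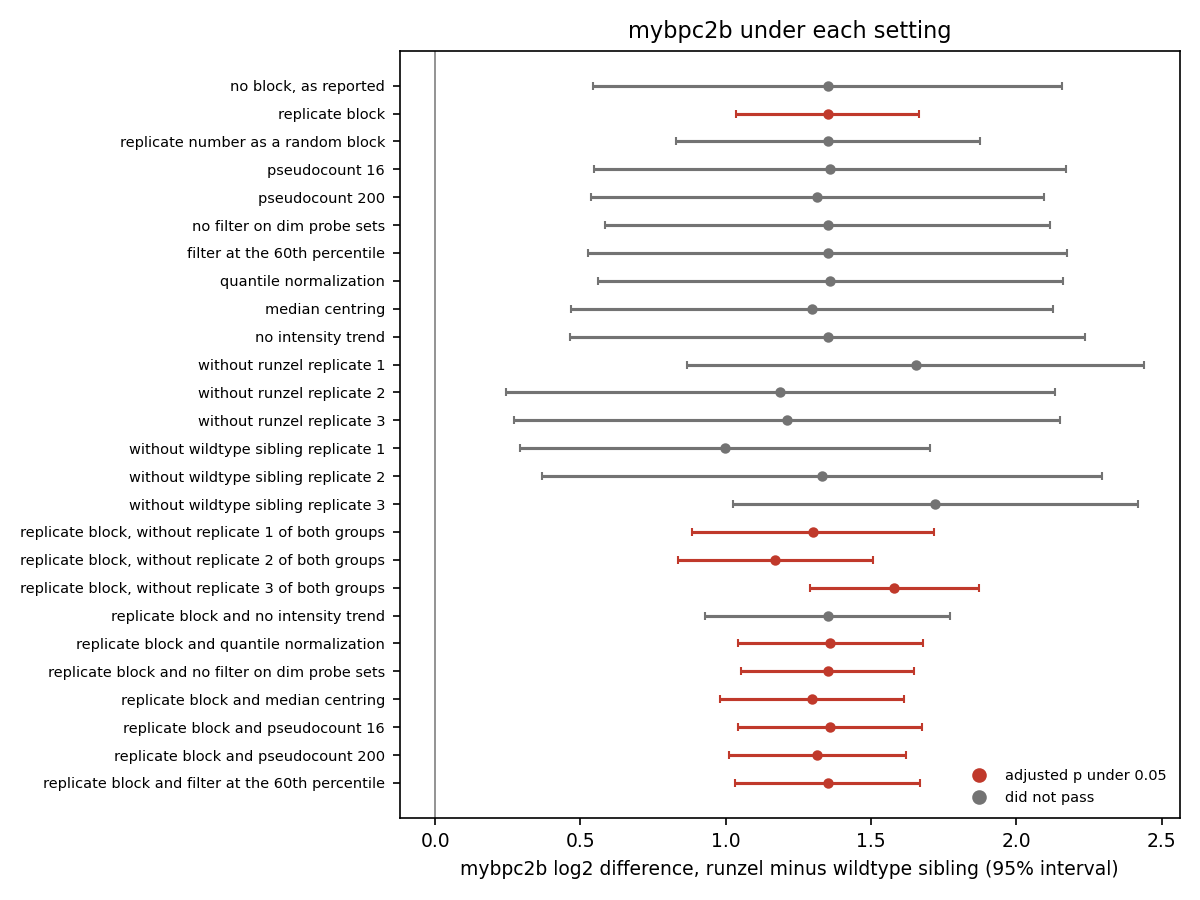
Log2 difference of mybpc2b, runzel minus wildtype sibling (horizontal axis), with its 95% interval under each setting (rows), red where the limma adjusted p passed and grey where it did not. All points lie between 1.00 and 1.72 and no interval reaches 0, while 10 of the 11 fits with the fixed block and 0 of the others passed. The blocked fits with median centring, pseudocounts of 16 and 200 and the 60th percentile filter were added after seeing the data. Every blocked fit rests on the same pairing, which was chosen from the values.

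The cardiac-form gene mybpc3 showed no difference of the size seen for mybpc2b. Its signal was 16427.6, 15200.4 and 15178.7 on the runzel arrays, against 16297.9, 15821.2 and 15213.5 on the wildtype sibling arrays. The groups overlapped almost fully, and the brightest array exceeded the dimmest by 1.08-fold. Only 0.3% of tested probe sets had as small a range over the 6 arrays. Mean signal was 15602 ± 714.87 in runzel muscle and 15778 ± 543.52 in wildtype muscle (SD, n = 3 each). The log2 difference was -0.02 with a paired 95% interval of 0.872-fold to 1.12-fold (limma adjusted p = 0.962 paired and 0.999 unpaired, exact permutation p = 0.8). The sign of so small a difference changed under quantile normalization, where it was 0.05.

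The heart was removed in the dissection, and the heart markers were dim. Of 13 listed, 7 were measured, which include the cardiac light chain gene myl7 and the cardiac troponin gene tnnt2a. None of these 7 passed the intensity filter at a signal of 429.08. Their summed signal was 640.2 to 1159.9 on runzel arrays and 534.4 to 920.1 on wildtype sibling arrays. The probe set named mybpc3 lay above that level on every array and stood at percentile 97.2 to 97.5 of signal. Brightness also depends on the probes themselves, and whether this probe set detects mybpc3 alone was not tested.

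Of the protein H genes, mybpha had 836.3, 809.5 and 559.1 on the runzel arrays, against 810.7, 392.6 and 543.8 on the wildtype sibling arrays. Runzel and wildtype sibling arrays of numbers 1 and 3 were nearly equal, at 1.03-fold in both pairs, and pair 2 alone stood apart at 2.06-fold. Wildtype sibling array 2 was the lowest of the 6 and lay below the filter level. Mean signal was 734.97 ± 152.89 in runzel muscle and 582.37 ± 211.7 in wildtype muscle (SD, n = 3 each). The log2 difference of 0.35 did not pass (limma adjusted p = 0.56 paired and 0.977 unpaired, exact permutation p = 0.3), with a paired 95% interval of 0.912-fold to 1.77-fold. Without pair 2 the paired difference was 0.04, and without wildtype sibling array 2 the unpaired difference was 0.115 (limma adjusted p = 0.977 and 0.999). The unpaired difference was 0.595 without wildtype sibling array 1 and 0.518 without runzel array 3, and the paired one 0.497 without pair 1 and 0.5 without pair 3, none of which passed.

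Its partner mybphb was among the brightest probe sets, at percentile 99.6 of mean signal. Summarised signals do not show whether probe sets this bright, the myosin light chains among them, neared the scanner's ceiling, which would make differences smaller. It had 68062.5, 72699.8 and 74110.2 on the runzel arrays, against 66907.3, 74693.8 and 87980.4 on the wildtype sibling arrays. The groups overlapped, and wildtype sibling array 3 was the highest. Mean signal was 71624 ± 3164.1 in runzel muscle and 76527 ± 10656 in wildtype muscle (SD, n = 3 each). The log2 difference of -0.09 did not pass (limma adjusted p = 0.631 paired and 0.993 unpaired, exact permutation p = 0.6), and its paired 95% interval ran from 0.851-fold to 1.04-fold. It turned to 0.03 under quantile normalization and to 0.02 without wildtype sibling array 3.

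**Figure D3:**
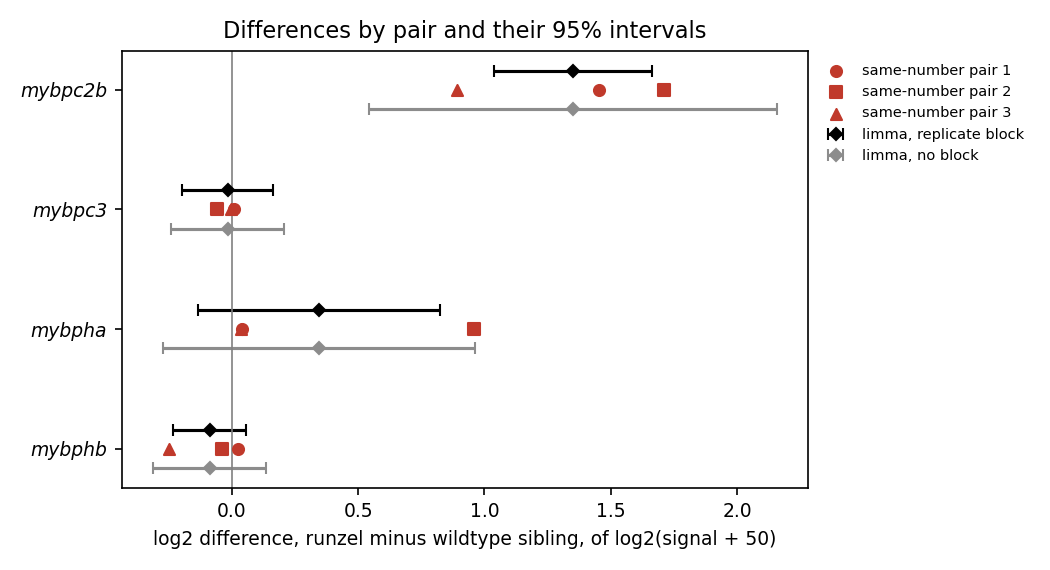
Log2 difference, runzel minus wildtype sibling (horizontal axis), of the 4 probe sets, with red symbols for each same-number pair and diamonds with 95% intervals for limma with the replicate block (black) and without it (grey). Only the intervals of mybpc2b lie wholly above 0, and a single pair carries mybpha.

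Because the 4 genes were read on the same arrays, their differences could be set against each other within each array. The log2 difference of mybpc2b exceeded that of mybpc3 by 1.37 ± 0.441, that of mybphb by 1.44 ± 0.305 and that of mybpha by 1.00 ± 0.354 (SD over 3 pairs), each in 3 of 3 pairs. Between the protein H genes, mybpha exceeded mybphb by 0.43 ± 0.506, which became 0.774 without wildtype sibling array 1 and 0.215 without wildtype sibling array 2. With 10 such contrasts, none could pass, since the exact permutation p was at least 0.1 and its adjusted value 0.5 or more. The excess of mybpc2b over mybpha was 0.403 without wildtype sibling array 1, and its excess over the other members ran from 0.99 to 1.76 over the settings tried.

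The other thick filament genes did not move with mybpc2b as a group. Of 9 tested genes of this list, which holds myosin heavy chains, light chains and titin, 5 lay above 0 and 4 below, with a median log2 difference of 0.02 against 0.00 over all 6136 tested genes. In the paired fit 1 rose and 0 fell, where 0.72% of all tested probe sets rose. Here and in the lists below, 0 genes passed in the fit without the block. The gene that rose was ttn.2, one of the titin genes, at 18590.2, 40646.8 and 37262.8 on the runzel arrays and 9571.3, 28932.9 and 14896.9 on the wildtype sibling arrays (log2 difference 0.92 ± 0.416, SD over 3 pairs, limma paired adjusted p = 0.00763). Like mybpc2b it was lowest on array 1 of both groups, but its groups overlapped. The fast myosin heavy chain gene myhz1.3 averaged 63556 ± 4941.7 in runzel and 55276 ± 9021.5 in wildtype siblings, and the slow heavy chain gene smyhc1 35037 ± 1794.3 and 28602 ± 7276.6. The fast light chain gene mylz3 averaged 110610 ± 6874.7 and 126090 ± 17826, and none of these 3 passed (limma paired adjusted p = 0.22, 0.218 and 0.204). Signal was higher in runzel in 3 of 3 pairs for myhz1.3, smyhc1, myl10 and ttn.2, a direction seen for 18.1% of tested probe sets. It was lower in 3 of 3 pairs for mylz3 and myh7. Within arrays, mybpc2b exceeded the median of the list by 1.35 ± 0.432 on the log2 scale in 3 of 3 pairs (exact permutation p = 0.1, adjusted p = 0.5). The difference from the list was -0.02 for mybpc3, 0.34 for mybpha and -0.09 for mybphb.

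**Figure D4:**
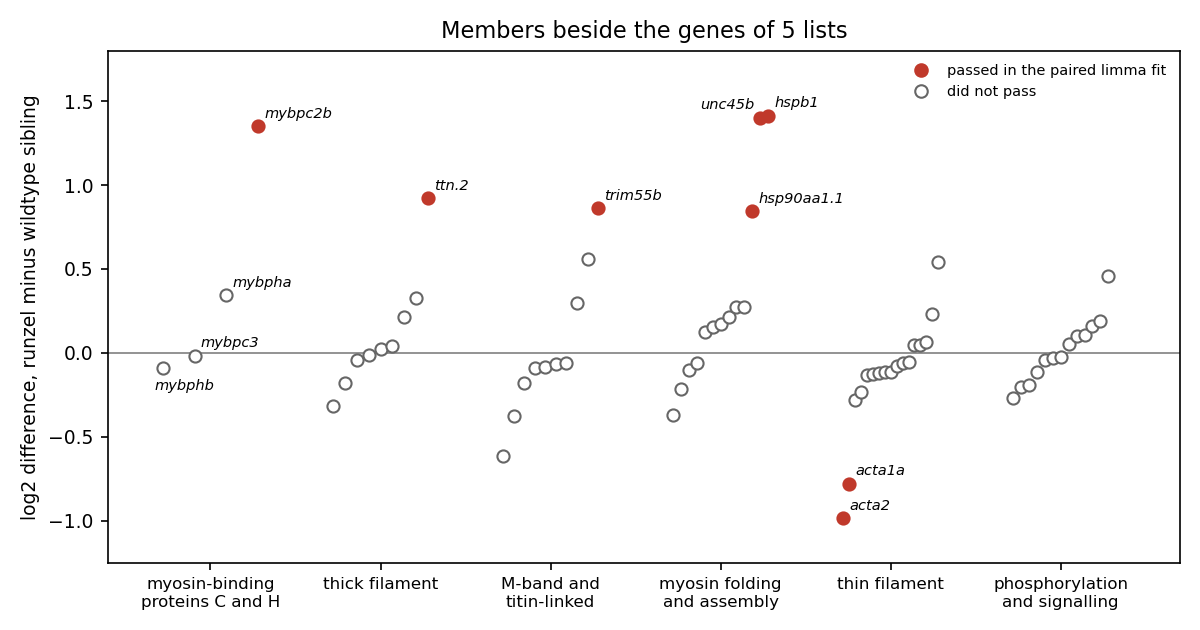
Log2 difference, runzel minus wildtype sibling (vertical axis), of the 4 members (left) and of each tested gene of 5 lists, filled red where the limma paired fit passed. In the thick filament list ttn.2 alone is filled, and acta1a and acta2 are the filled genes below 0.

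Myosin depends on chaperones to fold. Among 13 tested genes of myosin folding and thick filament assembly 3 rose and 0 fell in the paired fit, with a median log2 difference of 0.17. Of all tested probe sets 0.72% rose in that fit. The list was drawn up with earlier results of these data known, so this count is a description. The myosin chaperone gene unc45b had 4007.4, 4991.9 and 5145.9 on the runzel arrays and 1428.8, 1835.1 and 2015.8 on the wildtype sibling arrays (log2 difference 1.40 ± 0.064, limma paired adjusted p = 3.26e-04). Its groups were far apart and its pairs much closer to each other than those of mybpc2b. The small heat shock protein gene hspb1 averaged 9126.2 ± 3751.4 in runzel and 3211.7 ± 354.36 in wildtype siblings (1.41 ± 0.491, limma paired adjusted p = 0.00234). For hsp90aa1.1, which encodes the Hsp90 that works with Unc45b on myosin, the averages were 11066 ± 3830.5 and 6610.3 ± 4093.6 (0.84 ± 0.457, limma paired adjusted p = 0.0197). Its groups overlapped, with wildtype sibling array 3 at 11283.6 and runzel array 1 at 6917.9. In the fit without the block unc45b, hspb1 and hsp90aa1.1 did not pass (limma adjusted p = 0.143, 0.416 and 0.977). The immunophilin gene fkbp5, whose product is an Hsp90 cochaperone, was at 0.21 and did not pass (limma paired adjusted p = 0.444).

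The list of M-band and titin-linked proteins had 10 tested genes. No myomesin or obscurin gene was among them, so the cross-links of thick filaments at the M-band were not examined. In the paired fit 1 gene rose and 0 fell, where 0.72% of all tested probe sets rose. Of the 10 genes 3 lay above 0 and 7 below, with a median of -0.08. The gene that rose was trim55b, which encodes a MuRF ubiquitin ligase, at 4790.5 ± 971.27 in runzel and 2648.7 ± 798.78 in wildtype siblings (0.86 ± 0.29, limma paired adjusted p = 0.0106). Its relatives trim55a, trim63b and trim63a, the last added after its value was seen, had log2 differences of 0.56, 0.30 and -0.09. The LIM domain protein gene fhl1b was at -0.61, and none of these 4 passed (limma paired adjusted p = 0.152, 0.365, 0.855 and 0.0969).

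In the thin filament list, which the N-terminal end of myosin-binding protein C can reach, 0 of 17 tested genes rose and 2 fell, with 5 above 0, 12 below and a median of -0.12, where 0.473% of all tested probe sets fell. Those that fell were the actin genes acta1a, at 31604 ± 7501.8 in runzel and 53908 ± 10698 in wildtype siblings (-0.78 ± 0.26, limma paired adjusted p = 0.00313), and acta2, the smooth muscle form, at 4330.8 ± 1420.2 and 8435.4 ± 1445.6 (-0.99 ± 0.284, limma paired adjusted p = 0.00435). The troponin I gene tnni2b.1 had a log2 difference of 0.54 and the capping protein gene capzb -0.28, and neither passed (limma paired adjusted p = 0.121 and 0.203). Of 13 tested genes of myosin phosphorylation and contraction signalling 0 passed in either direction, with a median of -0.03. Among them were the calmodulin gene calm3b at -0.19 and the myosin phosphatase subunit gene ppp1r12a at 0.46 (limma paired adjusted p = 0.306 and 0.389). The p-values of single list members are those of the fit over all probe sets.

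Over the 6 arrays, the profile of mybpc2b was most like those of xirp2a, hsp90aa1.1, slc16a9a, socs3b and filip1b. Likeness was the root mean square difference between log2 values, each gene centred on its mean over the 6 arrays, among 6860 named probe sets outside the family. The difference was 0.246 for xirp2a and 0.339 for filip1b, against a median of 0.872 over all candidates. The gene xirp2a encodes a Xin repeat protein that binds actin. It had 3888.7, 6054.3 and 7295.7 on the runzel arrays and 1825.7, 3040.3 and 4109.5 on the wildtype sibling arrays. As with mybpc2b, array 1 was the lowest of each group and array 3 the highest of the wildtype siblings. The monocarboxylate transporter family gene slc16a9a averaged 1246.6 ± 531.98 in runzel and 426.63 ± 135.11 in wildtype siblings. Its wildtype sibling mean lay below the filter level of 429.08, so slc16a9a was tested only through its runzel arrays. The cytokine feedback inhibitor gene socs3b averaged 1824.6 ± 584.87 and 918.17 ± 280.79. All 5 genes were higher in runzel in 3 of 3 pairs, and 4 passed in the limma paired fit, the exception being filip1b (adjusted p = 0.11). Of all tested probe sets 18.1% were higher in 3 of 3 pairs and 0.72% were called as higher in that fit. Without the block none of the 5 passed (limma adjusted p = 0.814 to 0.977), and the groups overlapped for all but slc16a9a. Genes chosen for a profile like that of a called gene tend to be called too, so these counts are a description.

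**Figure D5:**
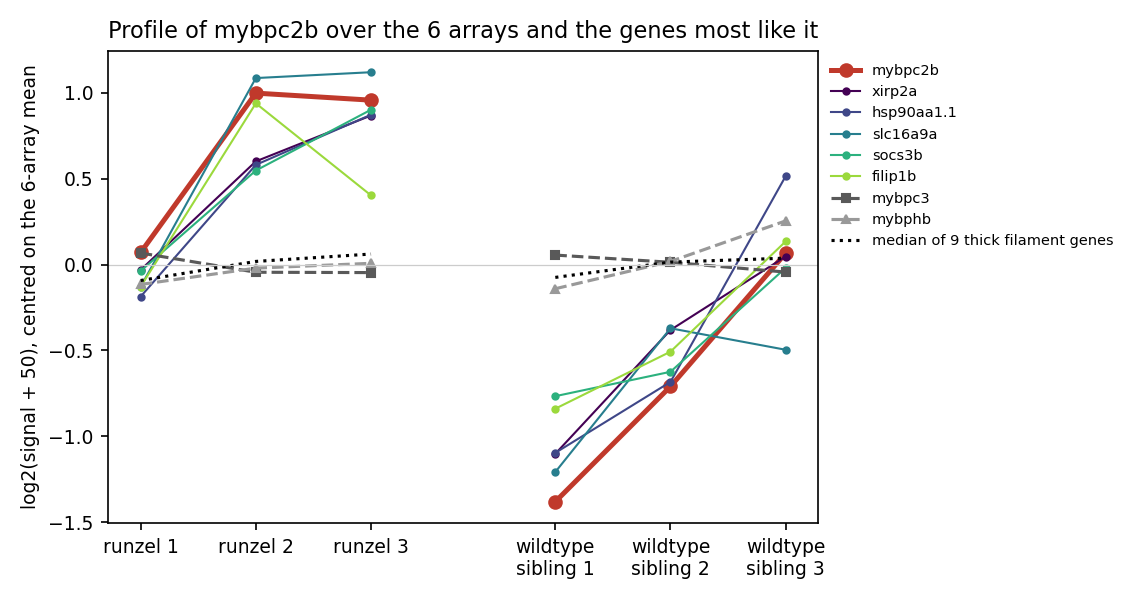
Log2 of signal plus 50, centred on each gene's mean over the 6 arrays (vertical axis), for mybpc2b (thick red), its 5 most alike genes (thin lines), mybpc3 and mybphb (dashed) and the median of 9 thick filament genes (dotted), on runzel arrays (left) and wildtype sibling arrays (right). Lines follow a gene and imply no order of arrays. Runzel array 1 and wildtype sibling array 3 lie close together for mybpc2b, at 0.07 each, mybpc3 stays within 0.067 of 0 on every array, and mybphb reaches 0.254 on wildtype sibling array 3.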

How the data were processed

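Arrays were scanned on a GeneChip Scanner 3000 and quantified in GeneChip Operating Software 1.2 with default parameters, per the labels. The deposited values are linear signal intensity, 1 per probe set and array. No source used here states how probes were summarised and scaled. On every array the 2% trimmed mean was 1500.42 to 1500.46, so the deposited scale was kept. Of 15617 probe sets 115 controls were left out. Of the other 15502, 10795 had 1 symbol in the platform annotation, 135 several and 4572 none; 10711 Entrez identifiers matched the RefSeq gene table of assembly GRCz12tu, used for names only, and 1 symbol was updated.

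Log2 of signal plus 50 was analysed with limma 3.58.1 in R 4.3.3 (empirical Bayes, intensity trend, Benjamini-Hochberg at 0.05, two-sided) over the 9301 probe sets with mean log2 at or above the 40th percentile, 8.90. All 4 members passed this filter. The fit without a block was primary. Deviations from group means correlated between same-number arrays at 0.551, 0.389 and 0.526, and between others at -0.401 to -0.152. The deviations of a group sum to 0 for each probe set. Negative values between others therefore follow from positive same-number values and are no separate evidence of pairing. Numbers were taken as pairs, a choice made from the values since no label states it. Exact permutation and sign-flip tests were two-sided. Replicates are pools whose independence the labels do not state beyond 3 clutches, and the number of arrays limits precision. A gene stood in its list by its brightest tested probe set.

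The named genes were the members, up to 4 genes per list by smallest paired p, and the 5 genes most like each member. Members, lists and rules were chosen with earlier results of these data known. The limma step was tested on simulated data and the exact tests on fixed example values. The simulation built in replicate-number effects, so it does not check whether the numbers are pairs. No array was dropped and no value imputed in the reported fits.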

Additional observations from a re-analysis of the deposited data

How the results depend on the processing

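The fit without a block called 0 probe sets, and 0 to 1 with an array left out. With the replicate block the count was 111, and 34, 29 and 149 without pair 1, 2 and 3. It was 103 under quantile normalization, 81 without the intensity filter and 3 without the intensity trend. Settings of the blocked fit added after seeing the data gave 93 with median centring, 107 and 113 with a pseudocount of 16 and 200, and 102 with a filter at the 60th percentile. The random block gave 19. For mybpc2b the difference was 0.997 to 1.72 with an array or pair left out. It passed with the block (1.35) and with each pair left out under the block (1.3, 1.17 and 1.58 without pair 1, 2 and 3, adjusted p = 0.0221, 0.0102 and 4e-06). It passed too with the block under quantile normalization (1.36), without the filter (1.35), with median centring (1.296), with a pseudocount of 16 and 200 (1.36 and 1.31) and at the 60th percentile filter (1.35). It did not pass with the block and no trend, with the random block or in any fit without the block (adjusted p = 0.337 to 1). The block changed no other member's call. The sign of mybpc3 turned under quantile normalization with and without the block (0.048), and was 0.004 with the block and without pair 2, and lay between -0.054 and 0.007 with arrays left out. For mybphb quantile normalization gave 0.034 in both fits, and leaving out arrays or pairs gave -0.179 to 0.018. Within arrays, mybpc3 against mybphb ran from -0.06 to 0.187 and against the thick filament median from -0.101 to 0.037. Signs so near 0 are not calls, and the cause was not tested. The probe set of mybpha fell below the filter at the 60th percentile and gave no value there.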

Other observations

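The genes most like the other members over the 6 arrays were found by the same measure. For mybpc3 they were ddx39ab, eef1b2, sgta, ppp2cb and rbm39a, at root mean square differences of 0.015 to 0.027 on the log2 scale, against a median of 0.208 over candidates. The translation elongation factor gene eef1b2 averaged 56368 ± 2630.5 in runzel and 57428 ± 1910.3 in wildtype muscle (SD, n = 3 each). A level profile is shared by many probe sets, so closeness to mybpc3 says little beyond that. For mybphb they were rnf8, srrm1, ckmb, saraf and rps12, at 0.037 to 0.048. The muscle creatine kinase gene ckmb, also in the M-band list, averaged 101080 ± 8481.9 in runzel and 106130 ± 12686 in wildtype siblings. For mybpha they were valopa, trmt61a, opa1, mrpl32 and pex5, at 0.075 to 0.119, and none of these 5 passed in the limma paired fit.

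The members differed widely in how far replicates of a group lay apart. The coefficient of variation of signal was 32.1% in runzel and 50.1% in wildtype siblings for mybpc2b, and 20.8% and 36.4% for mybpha. It was 4.58% and 3.44% for mybpc3 and 4.42% and 13.9% for mybphb. Each value rests on 3 arrays, and no test of the spread was run.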
